A study of Homo sapiens with 4 samples.

Results

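The 32 genes of glycolysis, lactate handling and pyruvate dehydrogenase were chosen by name: the 20263 rows of the count table were matched by Ensembl ID to the symbols of the glucose transporters, the glycolytic enzymes, the lactate dehydrogenases and lactate transporters, and the pyruvate dehydrogenase E1 subunits with their kinases. The rule itself uses no measured value, though the genes were picked with earlier results of these data known, and all 32 genes had a row and passed the filter on low counts. Messenger RNA was sequenced from the established human breast cancer line MDA-MB-231, a triple-negative line with mesenchymal traits, grown in DMEM with 10% serum and antibiotics. The DMSO group received the solvent and the Neoribocic group the compound, each for 24 h, with 2 libraries per group; the series title ties Neoribocic to slower tumour growth and a cell cycle block. The treatment protocol names the compound Rib_CA, which was read as the same treatment, and the sources used here give no dose. The labels leave it unsaid whether replicate libraries stem from separate cultures; p-values therefore measure only the spread between these samples, and that spread may be technical.

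Glycolysis splits glucose into pyruvate in the cytosol, and many of its steps are carried by isozymes, products of separate genes that catalyse the same reaction with different kinetics and regulation. Lactate dehydrogenase converts pyruvate and lactate into each other, and monocarboxylate transporters carry lactate across the plasma membrane. Pyruvate dehydrogenase instead turns pyruvate into acetyl-CoA in the mitochondrion, and the PDK kinases switch it off by phosphorylating its E1 alpha subunit. Tumour cells are known for making lactate even with oxygen present. Genes of this pathway are classical targets of the hypoxia-inducible factors, whose binding site often, though not always, has the core ACGTG.

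The sequences before the transcription start are shown for SLC16A3, a lactate exporter gene that rose, for PGK1, whose call depended on the processing, and for the lactate dehydrogenase genes LDHA and LDHB, which had lower levels. They come from RefSeq on GRCh38.p14 and run 5′ to 3′ on the strand of the gene, from 250 bases before a start to the first base annotated as an exon. Capitals mark ACGTG on either strand, which reads CACGT where it lies on the opposite one.
SLC16A3 (chr17:82228792-82229031, plus strand): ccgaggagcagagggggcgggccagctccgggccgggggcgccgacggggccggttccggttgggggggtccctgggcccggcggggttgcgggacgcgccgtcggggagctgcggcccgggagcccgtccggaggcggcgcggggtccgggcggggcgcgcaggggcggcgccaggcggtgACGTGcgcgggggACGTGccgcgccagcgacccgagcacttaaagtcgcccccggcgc
PGK1 (chrX:78103998-78104173, plus strand): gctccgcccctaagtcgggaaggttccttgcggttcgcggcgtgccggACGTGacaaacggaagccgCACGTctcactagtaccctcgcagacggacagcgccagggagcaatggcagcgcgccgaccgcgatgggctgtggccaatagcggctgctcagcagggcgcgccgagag
LDHA (chr11:18394313-18394387, plus strand): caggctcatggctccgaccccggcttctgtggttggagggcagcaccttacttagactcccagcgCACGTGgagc
LDHB (chr12:21657972-21658092, minus strand): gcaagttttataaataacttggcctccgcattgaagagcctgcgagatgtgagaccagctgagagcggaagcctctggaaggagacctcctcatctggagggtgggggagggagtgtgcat
SLC16A3 and PGK1 each hold 2 matches; the table has 4 other starts for SLC16A3, none with the motif before it. The capitals of LDHA are a single CACGTG, which contains the motif on each strand, so its 2 matches overlap. LDHB holds 0 matches in its stretch, which says only that these letters are not in this window. In stretches of the same length and place, 17.7% (SLC16A3), 12.4% (PGK1), 5.13% (LDHA) and 8.37% (LDHB) of all starts in the RefSeq table held the motif.

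Of the 32 genes, 29 had an entry in that table, and 19 of these (65.5%) held the motif in the 250 bases before at least 1 start, against 21.7% of 27305 genes. Those 27305 genes were neither limited to expressed genes nor matched for GC content before the start. The part of either in this difference was not tested. Counted by start, since genes with more starts have more chances, it was found at 22 of 59 starts of these genes and at 18.5% of all 35116 starts. LDHA had 5 matches in the 250 bases before 1 of its 2 starts, the most of these genes, and did not rise. ALDOC had 3 matches and SLC2A1 had 0, and both rose. Of the genes with an entry, the motif was present for 5 of the 6 that rose and for 14 of the other 23. A match is a description of the letters, and binding was not measured.

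With Neoribocic, RNA rose for genes of glucose uptake, of 3 middle steps and of lactate export, and fell for 1 lactate dehydrogenase gene. Both glucose transporter genes, the aldolase genes ALDOA and ALDOC, PFKM, TPI1 and the lactate exporter gene SLC16A3 rose, 7 of 32 genes, while LDHB fell. With the correction for transcript length and GC content described below, PFKM, ALDOA and TPI1 lost their calls, whereas ALDOC kept its own. The correction also added calls, PGK1 and PFKFB2 as higher and PFKP, PKM and PDK2 as lower. Without the correction, 24 of the 32 genes did not pass the threshold. This threshold was a p of 0.05 in the quasi-likelihood test of edgeR, adjusted by Benjamini-Hochberg over 13879 genes. Of all genes tested the same fit called 40.4%, 19.1% higher and 21.3% lower, so the share of these genes that rose (21.9%) was near the background and the share that fell (3.13%) was below it. The median log2 fold change, Neoribocic minus DMSO, was 0.19 over the 32 genes and 0.01 over all genes. In 29 genes the libraries of the groups did not overlap, 17 higher and 12 lower with Neoribocic, against 75.1% of all genes, 37.8% higher and 37.3% lower.

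**Figure D1:**
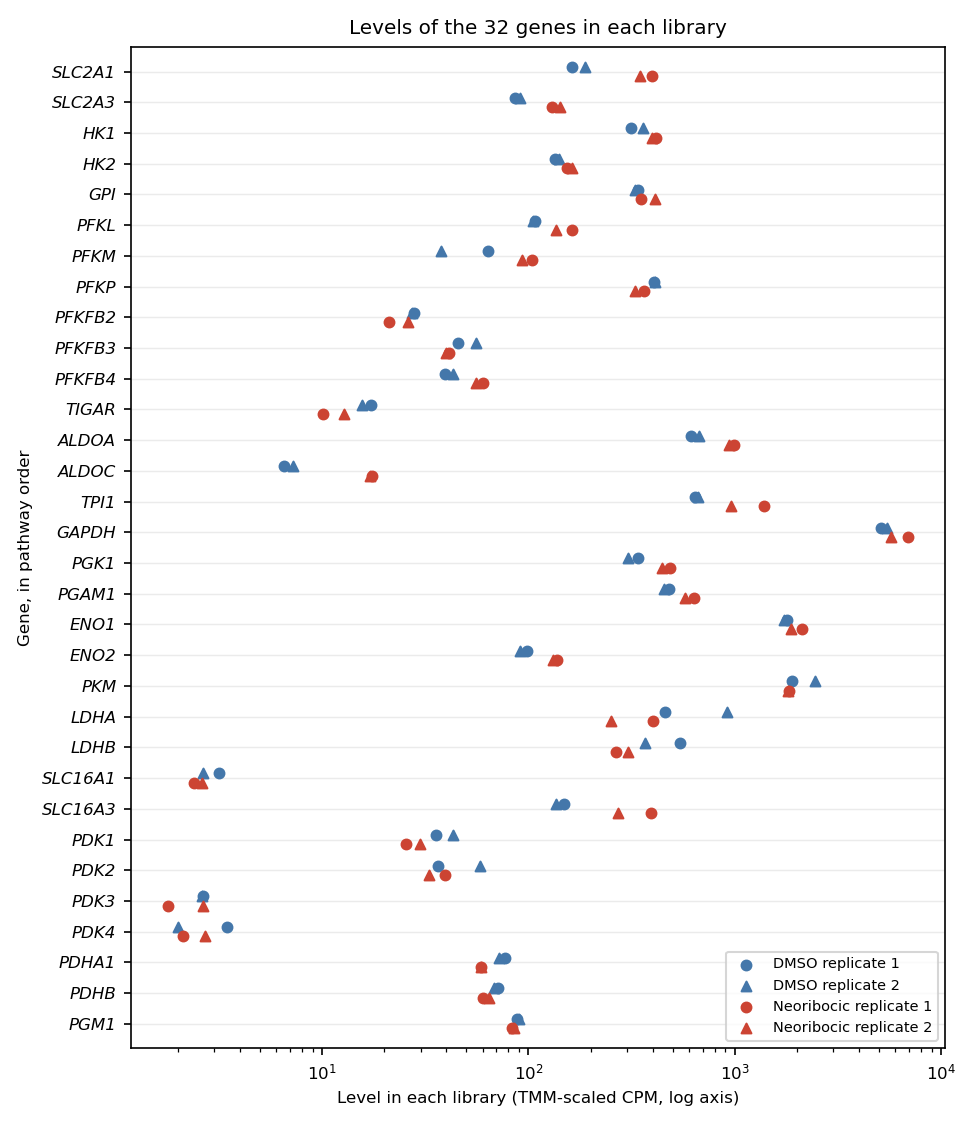
Levels of the 32 genes in pathway order, as TMM-scaled CPM on a log axis, with 1 point per library (circles replicate 1, triangles replicate 2, blue DMSO, red Neoribocic). GAPDH is highest at 5139 to 6913, and the red points lie to the right of the blue for SLC2A1, ALDOC and SLC16A3 and to the left for LDHA and LDHB.

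Levels are CPM, a gene's counts relative to its library's total, scaled by TMM, which sets libraries to a common composition and cannot see a change in RNA per cell; in bulk RNA fewer cells of a kind and less RNA per cell cannot be told apart. Totals were 34774542 to 43014212 counts per library, and the 32 genes held 1.34% to 1.84% of them, from 66 counts (PDK4) to 293659 counts (GAPDH). DMSO replicate 2 stood apart in its mitochondrial genes, which held 21.7% of its counts against 5.76% to 8.68% elsewhere. The 8 markers of the line summed to 6354 and 7413 CPM with DMSO and to 4681 and 4974 CPM with Neoribocic, 3 of them being called lower (CAV1, CD44 and AXL), with VIM at 2804 to 4238 CPM and SPARC at most at 1.01 CPM. The 9 markers of luminal breast lines summed to 802 to 1191 CPM, mostly keratins, with CDH1 at most at 0.141 CPM. Fibroblast markers summed to 8.55 to 10.5 CPM, with COL1A2 and DCN at 0. Markers of leukocytes and endothelium summed to 1.22 to 2.57 CPM, with CD3E and CDH5 at 0. The part of these markers in the results was not tested. Scaling by library totals moved the median of all genes to 0.18 and upper-quartile factors to 0.13, with the 32 genes at 0.35 and 0.31. Higher calls then made up 59.6% and 56.8% of all calls, against 47.2% with TMM.

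Fold changes in these libraries also followed transcript length and GC content. Over 13862 genes the log2 fold change had a Spearman correlation of -0.40 with length and of 0.45 with GC content; genes are not independent replicates. The Neoribocic libraries differed from each other along the same properties (replicate 2 minus replicate 1, 0.42 with length and -0.51 with GC content), and so did the DMSO libraries (-0.10 and 0.30). Over the 32 genes the same correlations were 0.01 (length) and 0.39 (GC content). The 7 genes that rose had a median GC content of 55.9%, the 24 that did not pass 52.5%, and all genes tested 49.4%. A second fit removed a smooth surface of length and GC content from each library, and it is called the corrected fit below. It left 4 of the 7 rises (SLC2A1, SLC2A3, ALDOC and SLC16A3), added PGK1 and PFKFB2 as higher, and put PFKP, PKM, LDHB and PDK2 lower, against backgrounds of 16.6% higher and 19.4% lower. The corrected median was 0.05 for these genes and -0.01 for all, and 9 of the 32 changed sign. What part length and GC content have in the fold changes beyond these values was not tested.

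**Figure D2:**
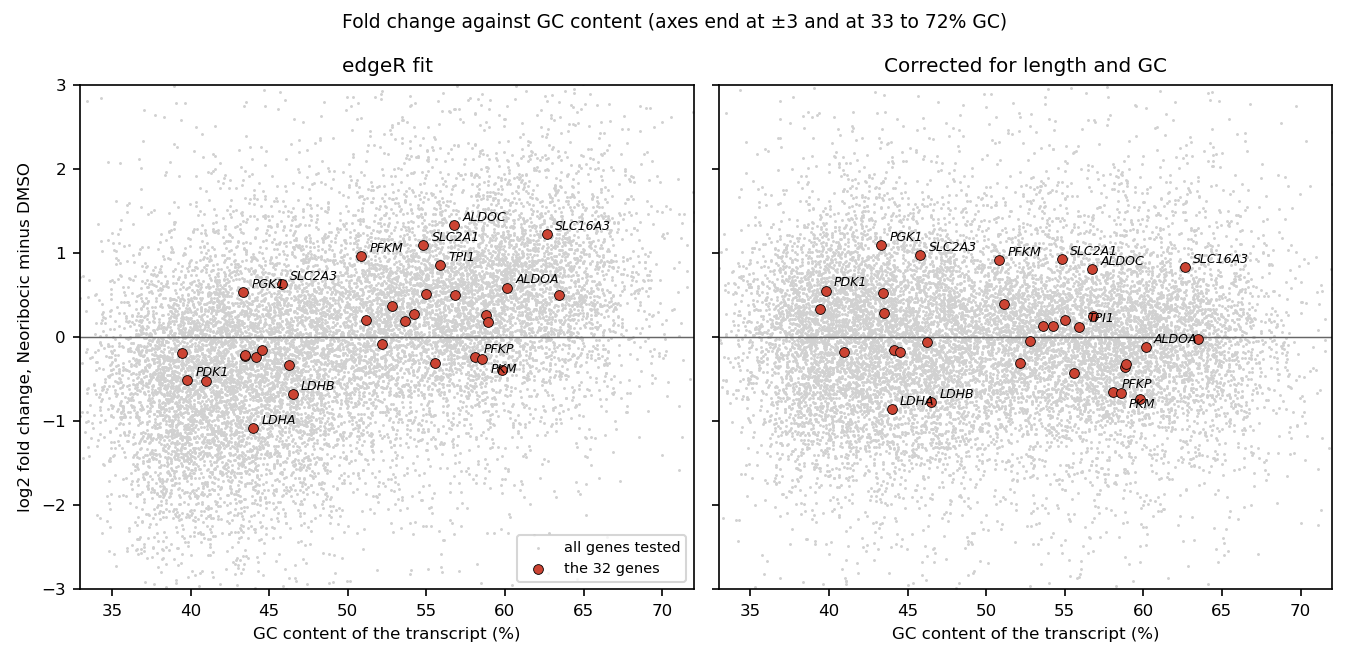
Log2 fold change (Neoribocic minus DMSO) against the GC content of the transcript in percent, before (left) and after (right) the correction, with all genes tested in grey and the 32 genes in red. The grey cloud slopes upward on the left and is level on the right, where TPI1 (0.12) and ALDOA (-0.13) lie near 0 and PGK1 (1.09) and SLC2A3 (0.97) near 1.

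Glucose enters the cell through facilitative transporters, and RNA of both measured members rose. SLC2A1 (ENSG00000117394), which encodes GLUT1, the widely expressed basal glucose transporter, stood at 162 and 188 CPM in the DMSO libraries and at 398 and 347 CPM with Neoribocic. Both treated libraries were well above both controls. The means were 175 ± 18.4 and 373 ± 36.1 CPM (SD, n = 2 per group). The log2 fold change was 1.09 ± 0.19 (SE; edgeR adjusted p = 0.00383), and 0.92 after the correction. SLC2A3 (ENSG00000059804), which encodes the high-affinity transporter GLUT3, went from 85.6 and 91.1 CPM to 131 and 143 CPM. The groups again did not overlap, and the log2 fold change was 0.63 ± 0.19 (edgeR adjusted p = 0.0272), or 0.97 after the correction. SLC2A1 passed under all 12 alternative settings (edgeR, DESeq2 or limma adjusted p from 7.46e-06 to 0.0325). The call of SLC2A3 was lost with each of the 4 libraries left out in turn, at log2 fold changes of 0.57 to 0.70 and edgeR adjusted p from 0.0699 to 0.106, against 0.005 after the correction. Reads of SLC2A3 may be divided with its near copy SLC2A14, which had 1.21 to 2.57 CPM.

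The first steps inside the cell did not pass the threshold. Hexokinases phosphorylate glucose and trap it. HK1, the isozyme found in most tissues, had 315 and 360 CPM with DMSO and 417 and 399 CPM with Neoribocic, and HK2, the isozyme common in tumours and muscle, had 135, 140, 154 and 163 CPM in the same order. Both were somewhat higher in each treated library, at log2 fold changes of 0.27 ± 0.19 and 0.20 ± 0.18 (edgeR adjusted p = 0.265 and 0.389). GPI, which isomerises glucose 6-phosphate, was at 0.19 ± 0.19, and PGM1, which links glucose 6-phosphate to glycogen, at -0.08 ± 0.19. After the correction HK1 was at 0.12, HK2 at 0.39, GPI at 0.13 and PGM1 at -0.32, all 4 short of the threshold. PGM1 lay above 0 with library totals (0.09) and upper-quartile factors (0.04).

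At phosphofructokinase, the committed step, PFKM passed the threshold and the other 2 isozymes did not. PFKP, the platelet-type subunit and the leading isozyme by level per kb of transcript, had 406 and 410 CPM with DMSO and 361 and 330 CPM with Neoribocic. PFKM (ENSG00000152556), the muscle-type subunit, had 63.3 and 37.6 CPM with DMSO and 104 and 92.8 CPM with Neoribocic. PFKL, the liver-type subunit, had 107 and 105 CPM against 163 and 136 CPM. In each of the 3 genes the groups did not overlap, PFKP being lower with the compound and the others higher. PFKM rose by 0.96 ± 0.27 on the log2 scale (edgeR adjusted p = 0.0232), PFKL was at 0.49 ± 0.19 (0.0695) and PFKP at -0.24 ± 0.18 (0.319). After the correction PFKP was at -0.66 (adjusted p = 0.0143), PFKM at 0.91 (0.0697) and PFKL at -0.02, the last a change of sign. The DMSO libraries of PFKM lay far apart: without DMSO replicate 2 its log2 fold change was 0.64 (0.0924), without DMSO replicate 1 it was 1.38 (0.0113), and without Neoribocic replicate 1 or 2 it was 0.89 (0.111) and 1.04 (0.0553).

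As shares of the summed level per kb, PFKP held 73.0% and 76.4% of phosphofructokinase RNA in the DMSO libraries and 60.7% and 62.2% with Neoribocic. PFKM held 9.37% and 5.78%, then 14.3% and 14.4%. The share of PFKL was 17.6% and 17.8%, then 24.9% and 23.4%. Each of the 3 shares was separate between the groups, but so were the ratios of 73.3% of all pairs of tested genes with counts in every library. A ratio of 2 genes in 1 library does not depend on its scaling: the log2 ratio of PFKM to PFKP was -2.68 and -3.45 in DMSO and -1.80 and -1.83 in Neoribocic, a difference of 1.25 (1.64 after the correction). That of PFKP to PFKL was 1.92 and 1.97, then 1.15 and 1.28, a difference of -0.73 (-0.64 after the correction). Both differences had an exact two-sided permutation p of 0.333, the smallest that 2 libraries against 2 can give, and 0.567 adjusted over the 17 isozyme pairs compared.

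**Figure D3:**
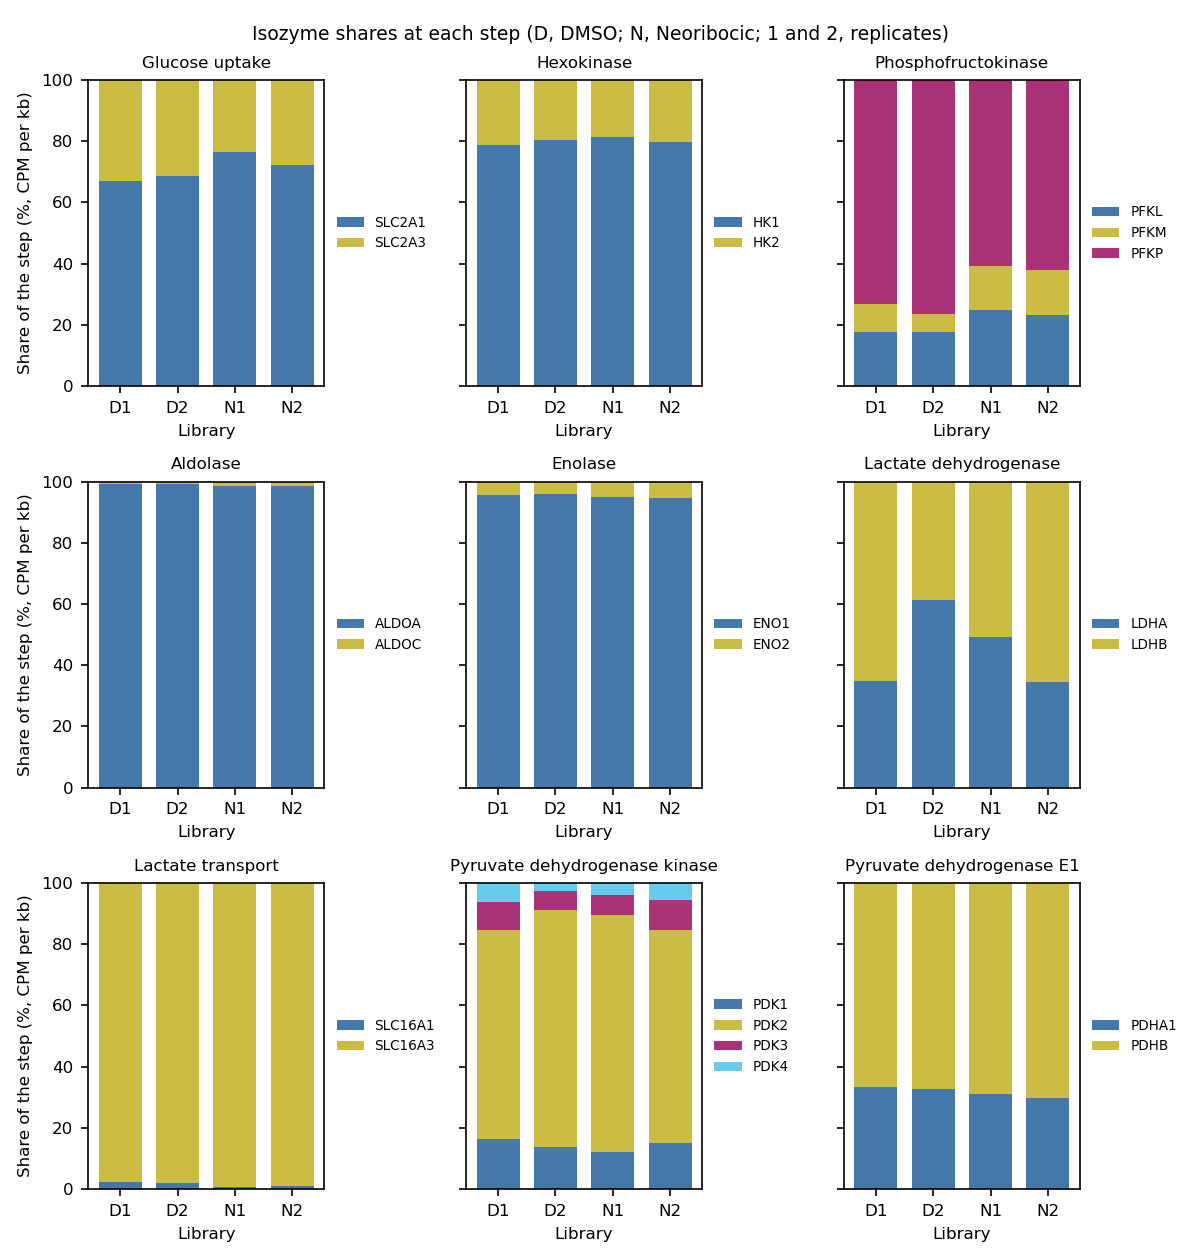
Share of each isozyme in the summed level of its step, as percent of CPM per kb of transcript, in the DMSO (D1, D2) and Neoribocic (N1, N2) libraries. PFKP takes less of its bar in N1 and N2 (60.7% and 62.2%) than in D1 and D2 (73.0% and 76.4%), whereas the shares of LDHA and LDHB overlap between the groups.

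Phosphofructokinase is activated by fructose 2,6-bisphosphate, which the PFKFB enzymes make and break and TIGAR breaks down. None of these 4 genes passed. PFKFB4 had 39.2 and 43.2 CPM with DMSO and 60.4 and 55.7 CPM with Neoribocic, PFKFB3, whose enzyme strongly favours synthesis, had 45.3, 55.9, 41.4 and 39.9 CPM, and PFKFB2 had 27.8, 27.3, 21.2 and 25.9 CPM. Per kb of transcript, the DMSO means of PFKFB4 and PFKFB3 were close, at 11.5 and 11.3 CPM. With Neoribocic the means per kb were 16.2 CPM for PFKFB4 and 9.06 CPM for PFKFB3. Their log2 ratio, PFKFB4 to PFKFB3, differed by 0.81 (0.67 after the correction; exact permutation p = 0.333). The log2 fold changes were 0.50 ± 0.20 for PFKFB4 (edgeR adjusted p = 0.0817), -0.32 ± 0.21 for PFKFB3 (0.259) and -0.23 ± 0.22 for PFKFB2 (0.444), and after the correction 0.25, -0.43 and 0.52, of which the last passed (0.0427). TIGAR was at 17.3 and 15.5 CPM, then 10.1 and 12.7 CPM (-0.52 ± 0.24, edgeR adjusted p = 0.111; -0.18 after the correction), and 42.6% of its exon bases overlap another gene on its strand.

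Aldolase splits the 6-carbon sugar, and RNA of both measured isozymes rose. ALDOC (ENSG00000109107), the brain-type isozyme, had 6.57 and 7.20 CPM in DMSO and 17.5 and 17.1 CPM in Neoribocic. The treated libraries lay close together and far above the controls, with a log2 fold change of 1.33 ± 0.23 (edgeR adjusted p = 0.00359), the largest of the 32 genes, and 0.80 after the correction. It passed under all 12 alternatives (adjusted p from 6.66e-06 to 0.0285). ALDOA (ENSG00000149925), the leading isozyme, had 616 and 669 CPM, then 992 and 936 CPM, so ALDOC held only 0.86% of aldolase RNA per kb in either DMSO library and 1.41% and 1.46% with Neoribocic. ALDOA had a log2 fold change of 0.59 ± 0.19 (edgeR adjusted p = 0.0387). Its call was lost with any 1 of the 4 libraries left out (0.53 to 0.66; adjusted p from 0.0695 to 0.162), and with the correction its value was -0.13 (0.537). Of the exon bases of ALDOA, 42.3% overlap another gene on its strand.

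TPI1 (ENSG00000111669), which interconverts the 3-carbon sugars made by aldolase, had 638 and 660 CPM with DMSO and 1381 and 958 CPM with Neoribocic. Both treated libraries were higher, replicate 1 by far the most. The log2 fold change was 0.85 ± 0.23 (edgeR adjusted p = 0.0196), and 0.12 after the correction (0.559). Without Neoribocic replicate 1 it was 0.57 (0.148), without DMSO replicate 1 it was 0.82 (0.0675) and without DMSO replicate 2 it was 0.88 (0.061).

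None of the 6 genes from GAPDH to PKM passed. GAPDH, the dehydrogenase that makes the first NADH of the pathway and a common reference gene, had 5139, 5442, 6913 and 5724 CPM, a log2 fold change of 0.26 ± 0.24 (edgeR adjusted p = 0.423) that was -0.36 after the correction. PGK1, which makes the first ATP, had 339 and 302 CPM with DMSO and 484 and 442 CPM with Neoribocic. Its groups did not overlap, and it lay just outside the threshold at 0.53 ± 0.19 (edgeR adjusted p = 0.0532), with a range of 0.00684 to 0.209 over the alternatives. It was at 1.09 after the correction and passed there, with upper-quartile factors, library totals, DESeq2 and limma-voom. PGAM1, phosphoglycerate mutase, was at 0.37 ± 0.19 (0.149), or -0.05 after the correction. Its near copy PGAM4, with which reads can be divided, rose from 5.10 and 5.58 CPM to 12.8 and 9.41 CPM, a call lost without DMSO replicate 1 (0.99), without Neoribocic replicate 1 (0.83) and with the correction (0.18).

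Enolase and pyruvate kinase close the pathway. ENO1, the ubiquitous enolase, had 1791, 1732, 2111 and 1877 CPM (0.18 ± 0.21), and ENO2, the neuronal isozyme, had 98.2, 91.2, 137 and 131 CPM (0.50 ± 0.18, edgeR adjusted p = 0.0572). ENO2 was higher in both treated libraries, though at 0.20 (0.327) after the correction, and its share of enolase RNA per kb went from 4.35% and 4.18% to 5.12% and 5.49%, the groups not overlapping. The log2 ratio of ENO2 to ENO1 differed by 0.33, and by 0.53 after the correction (exact permutation p = 0.333). PKM, the pyruvate kinase gene whose splice forms M1 and M2 a count per gene cannot tell apart, had 1896 and 2457 CPM with DMSO and 1826 and 1803 CPM with Neoribocic. Both treated libraries were below both controls, at -0.26 ± 0.22 (edgeR adjusted p = 0.373) and at -0.67 after the correction (0.0311). Without DMSO replicate 2, the library with the high mitochondrial share, PKM was at -0.05 (0.869), and without DMSO replicate 1 at -0.44.

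Both lactate dehydrogenase genes had lower levels in each Neoribocic library than in either control, and LDHB passed the threshold. LDHB (ENSG00000111716), the heart-type subunit, had 543 and 369 CPM with DMSO and 264 and 305 CPM with Neoribocic. LDHA (ENSG00000134333), the muscle-type subunit, had 458 and 921 CPM, then 400 and 252 CPM. Neither gene's groups overlapped, but the control libraries were uneven, DMSO replicate 2 holding the most LDHA and DMSO replicate 1 the most LDHB. LDHB fell by 0.68 ± 0.23 on the log2 scale (edgeR adjusted p = 0.046; -0.77 after the correction, 0.0292). LDHA was at -1.08 ± 0.39, a larger difference that did not pass (edgeR adjusted p = 0.0728; -0.86 after the correction, 0.208).

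Each call turned on single libraries. Without DMSO replicate 1, LDHB was at -0.37 (edgeR adjusted p = 0.239) and LDHA at -1.50 (0.0171). Without DMSO replicate 2, the library with the high mitochondrial share, LDHB was at -0.92 (0.0257) and LDHA at -0.48 (0.278). LDHB was also lost without Neoribocic replicate 1 (-0.57, 0.224) or 2 (-0.78, 0.0922), with library totals, upper-quartile factors and limma-voom, while LDHA passed with DESeq2 (0.012) and library totals (0.0296). The share of LDHA in lactate dehydrogenase RNA per kb was 34.9% and 61.4% in DMSO and 49.0% and 34.5% in Neoribocic, so the groups overlapped and no shift between the subunits was resolved. Of the exon bases of LDHB, 33.4% overlap another gene on its strand.

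Of the lactate transporter genes SLC16A1 and SLC16A3, the second held nearly all of the RNA of the pair and rose. SLC16A3 (ENSG00000141526), for which 1 of 5 annotated starts has ACGTG before it, the start printed above, encodes MCT4, the exporter typical of highly glycolytic cells. It had 149 and 135 CPM with DMSO and 393 and 270 CPM with Neoribocic. Both treated libraries were well above the controls, with a log2 fold change of 1.22 ± 0.23 (edgeR adjusted p = 0.00447; 0.83 after the correction). The call held under all 12 alternatives (adjusted p from 2.17e-05 to 0.036). SLC16A1, which encodes MCT1, had only 3.16, 2.65, 2.40 and 2.61 CPM (-0.21 ± 0.31, edgeR adjusted p = 0.607; 0.29 after the correction), and SLC16A3 held 97.7% and 97.9% of the level per kb of the pair in DMSO and 99.3% and 98.9% in Neoribocic.

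Other genes of lactate handling, outside the 32, moved in both directions. SLC16A7, which encodes MCT2, the high-affinity relative, fell from 13.5 and 20.5 CPM to 2.19 and 1.62 CPM, by 3.16 ± 0.32 on the log2 scale (edgeR adjusted p = 6.86e-04; -2.15 after the correction). The ancillary proteins that bring these transporters to the membrane are encoded by BSG (basigin) and EMB (embigin). EMB fell from 52.7 and 53.3 CPM to 11.2 and 15.8 CPM (-1.97 ± 0.25; -1.39 after the correction), whereas BSG rose from 618 and 695 CPM to 1407 and 1106 CPM (0.94 ± 0.21). LDHD, a mitochondrial dehydrogenase of D-lactate, rose from 0.818 and 0.61 CPM to 6.40 and 4.49 CPM (2.92 ± 0.37; 2.21 after the correction). The edgeR calls of SLC16A7, EMB and LDHD held under all 12 alternatives, and that of BSG was lost without Neoribocic replicate 1 (0.76) and with the correction (0.26).

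At pyruvate dehydrogenase neither the E1 subunits nor the kinases passed. PDHA1, the E1 alpha subunit that the kinases phosphorylate, had 77.1, 72.1, 59.1 and 58.6 CPM (-0.34 ± 0.19, edgeR adjusted p = 0.187; -0.07 after the correction), and PDHB, the beta subunit, had 71.1, 68.1, 60.5 and 64.3 CPM (-0.16 ± 0.19, 0.544). Both subunits were slightly lower in each treated library. Which of them had more RNA per kb depended on the length used: PDHB held 66.9% of the pair in DMSO per kb of a single transcript and 47.1% per kb of all exons. PDK2, the leading kinase gene per kb, had 36.3, 58.4, 39.2 and 33.1 CPM, with DMSO replicate 2 alone above the rest. It was at -0.39 ± 0.27 (edgeR adjusted p = 0.27), at 0.0046 without DMSO replicate 2 and at -0.74 after the correction (0.0475), and 38.6% of its exon bases overlap a gene on the opposite strand.

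PDK1, the kinase gene best known as a hypoxia target, had 35.8 and 42.9 CPM with DMSO and 25.4 and 29.8 CPM with Neoribocic. Its groups did not overlap, with a log2 fold change of -0.51 ± 0.22 (edgeR adjusted p = 0.0997). The transcript used for PDK1 has 14193 bases, and the correction for length and GC content brought it to 0.55. PDK3 had 2.65, 2.62, 1.79 and 2.65 CPM and PDK4, the isozyme induced by fasting, 3.47, 2.01, 2.12 and 2.70 CPM. Both were low and overlapped between the groups, at -0.25 ± 0.34 and -0.19 ± 0.37 (-0.15 and 0.34 after the correction). PDK2 held 68.4% and 77.4% of kinase RNA per kb in DMSO and 77.5% and 69.4% with Neoribocic, so its lead over the other kinases showed no shift beyond the spread between replicates.

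**Figure D4:**
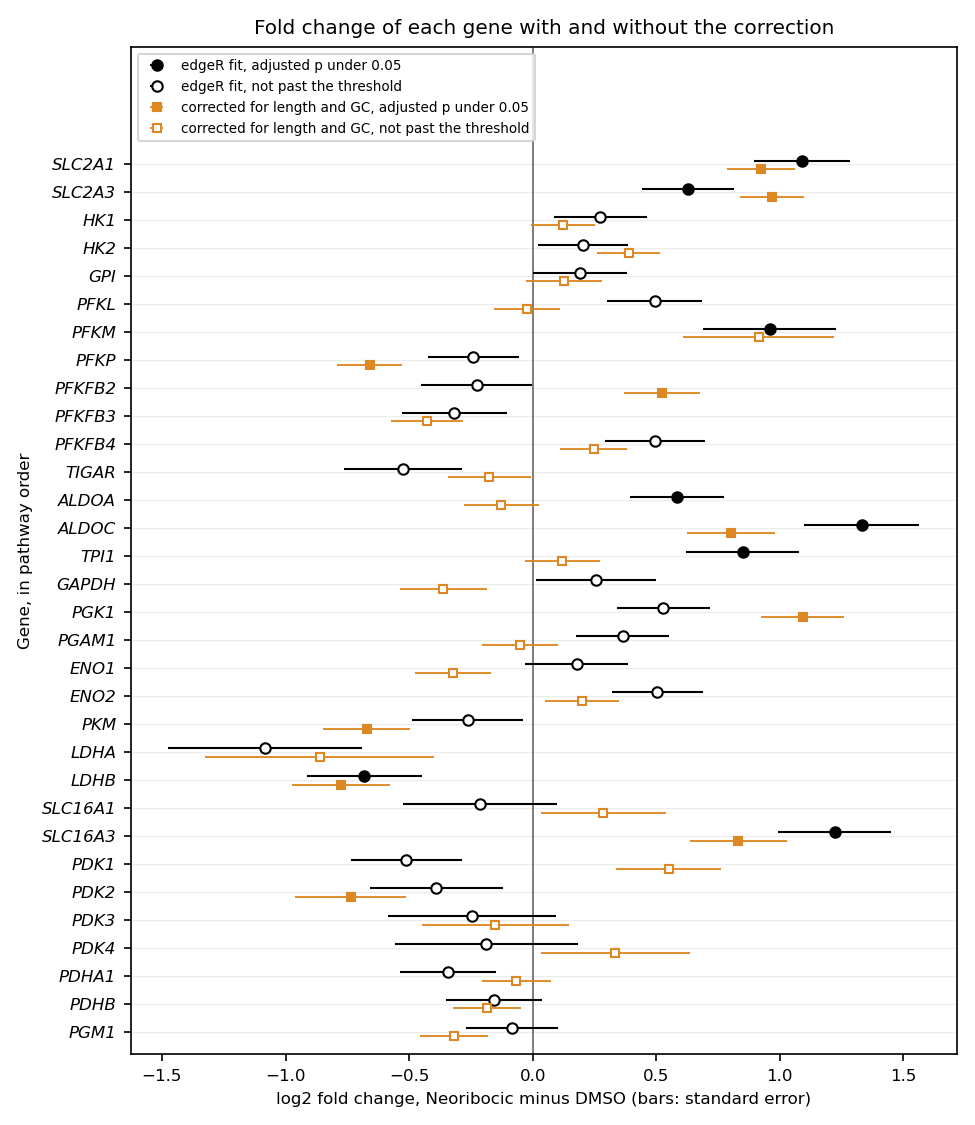
Log2 fold change (Neoribocic minus DMSO, bars 1 SE) of each of the 32 genes in the edgeR fit (circles) and after the correction for length and GC content (squares), filled where the adjusted p is under 0.05. SLC2A1, SLC2A3, ALDOC and SLC16A3 are filled and right of 0 in both, LDHB is filled and left of 0 in both, and ALDOA, GAPDH and PDK1 change side.

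Across the 17 isozyme pairs, 10 log2 ratios did not overlap between the groups (58.8%, against the 73.3% of all gene pairs), and 7 of these kept their sign after the correction. Besides PFKM to PFKP, PFKP to PFKL, PFKFB4 to PFKFB3 and ENO2 to ENO1, they were PFKM to PFKL (0.52, larger after the correction), ALDOC to ALDOA (0.75, corrected 0.93) and SLC16A3 to SLC16A1 (1.41, corrected 0.53). The ratio of SLC2A3 to SLC2A1 differed by -0.46 and by 0.05 after the correction, that of PFKFB4 to PFKFB2 by 0.73 and -0.28, and that of PDHB to PDHA1 by 0.18 and -0.12. The ratio of HK2 to HK1 overlapped between the groups (-0.07), HK1 holding 78.9% to 81.3% of hexokinase RNA per kb in every library. Shares depend on the length used: per kb of all exons the DMSO mean of HK1 was 70.2% instead of 79.6%. For PFKP the means were then 81.8% in DMSO and 70.4% with Neoribocic, instead of 74.7% and 61.5%. Relative to SLC2A1, which held 66.9% and 68.8% of the glucose transporter pair per kb in DMSO and 76.5% and 72.2% in Neoribocic, SLC2A3 had a lower share in both treated libraries, a difference that the correction removed from the ratio. No pair could pass an exact permutation test at 0.05 with 2 libraries against 2.

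The pathways around glycolysis were read from lists by their counts of calls in the same edgeR fit. Over all genes tested this fit called 19.1% higher and 21.3% lower, and the corrected fit 16.6% and 19.4%. No list was tested as a set. Of the pyruvate dehydrogenase system outside the 32 genes, 11 of 12 genes were tested, 2 rose and 2 fell (median -0.12, corrected 0.07). MPC2, a subunit of the mitochondrial pyruvate carrier, rose from 26.9 and 21.1 CPM to 73.7 and 46.1 CPM (1.32 ± 0.28; 1.54 after the correction), a call lost without DMSO replicate 2 (1.16) and without Neoribocic replicate 1 (0.95). PDPR, a regulatory subunit of the phosphatase that opposes the kinases, fell by 0.82 ± 0.19, and lost its call with library totals, with the correction (-0.34) and without Neoribocic replicate 1 (-0.74). Of 16 tested isozymes and partners of these genes, of 28 listed, 6 rose and 3 fell (median 0.23, corrected 0.12, with 3 and 2 calls). SLC2A8, an intracellular glucose transporter, rose from 4.26 and 3.90 CPM to 20.3 and 15.0 CPM (2.11 ± 0.27; 1.48 after the correction) under all 12 alternatives. HK3, PGK2 and PGAM2 were at 0 in every library.

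In the pentose phosphate pathway, which branches off at glucose 6-phosphate, 4 of 8 tested genes rose and 0 fell (median 0.63), but after the correction 2 rose and 2 fell (median 0.01). H6PD, which starts the pathway in the endoplasmic reticulum, rose from 56.5 and 66.3 CPM to 130 and 137 CPM, under all 12 alternatives as well (1.12 ± 0.19; 1.25 after the correction). Among 17 tested glycogen genes 2 rose and 7 fell (median -0.35, corrected -0.21). PHKA1, a regulatory subunit of phosphorylase kinase, was among those that fell (-1.29, corrected -0.68), while PHKG2, a catalytic subunit of this kinase, rose (1.19, corrected 1.22). Of 22 citric acid cycle genes 4 rose and 5 fell (median 0.09), near the shares of all genes (19.1% and 21.3%). IDH3A of the NAD-dependent isocitrate dehydrogenase fell by 1.11 and SUCLA2 of succinyl-CoA synthetase by 1.37 (-0.64 and -1.15 after the correction). In gluconeogenesis 1 of 4 tested genes rose and 0 fell.

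Among 20 regulators of glycolytic transcription 3 rose and 2 fell, against 19.1% and 21.3% of all genes (median 0.19, corrected 0.09, with 6 and 1 calls). HIF1A, the oxygen-regulated subunit of hypoxia-inducible factor 1, had 647 and 697 CPM with DMSO and 216 and 295 CPM with Neoribocic, while EPAS1, which encodes its relative HIF-2 alpha, had 56.8 and 57.1 CPM, then 116 and 117 CPM (1.03 ± 0.19; 1.10 after the correction). VHL, which marks both proteins for degradation, rose from 68.3 and 72.6 CPM to 152 and 166 CPM (1.17 ± 0.19; 1.42 after the correction). The calls of EPAS1 and VHL held under all 12 alternatives. Protein levels, glucose uptake and lactate release were not analysed here.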

How the data were processed

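RNA sequencing of 4 libraries, 2 with DMSO and 2 with Neoribocic, gave the deposited count table, which the authors left as raw whole-number counts for each Ensembl gene, per the file headers and values. Each library used 1.4 µg of total RNA and an mRNA kit, per the labels' protocols. The aligner, the counter and its handling of strand and overlapping genes are unstated in the sources used; mouse genome builds are named in the submitters' processing notes, although the IDs are human. Counts below 20 were even in 62.3% to 65.4% of cases, against 50.3% to 51.3% for counts of 20 to 200, so both mates of a pair may have been counted and counting error may be understated.

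The 32 genes and all lists were chosen with earlier results of these data known. IDs were matched to symbols (20148 of 20263 found). Counts were fitted with edgeR 4.0.16 in R 4.3.3 (filterByExpr, TMM, robust quasi-likelihood, group as the only term), with Benjamini-Hochberg adjustment over all 13879 genes tested and a threshold of 0.05. The standard error is the log2 fold change divided by the square root of F. Transcript length, GC content and exon overlap came from GENCODE 29; levels were compared between genes only per kb of 1 transcript. The correction fitted log2 CPM (prior count 3) on length and GC content per library with mgcv 1.9.3. Isozyme log2 ratios were tested by exact permutation over libraries, two-sided. All 32 genes could be named; members past the threshold, leading isozymes and members of pairs have values per library, and up to 3 genes per direction with the smallest p were taken from each list; some of these are not reported here.

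The alternatives were RLE and upper-quartile factors, library totals, no count filter, DESeq2 1.42.0, limma-voom 3.58.1, the replicate number as a block, the correction, and each library left out in turn; the level per kb of all exons was added after seeing the data. Deviations of same-numbered libraries from their group means had a correlation of -0.05 over genes, which cannot settle whether replicate numbers pair the samples. On simulated counts for Neoribocic against DMSO (13688 genes), the fit recovered 0 of 65 genes planted with a 1.5-fold change. It recovered 6 of 66 at 2-fold and 54 of 64 at 4-fold, with 5 false among 65 calls. Only 200 genes were changed there, whereas the data gave 5610 calls, so the adjusted threshold was stricter in the simulation. Small changes can be missed, but these recoveries do not give the rate for the real fit.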

Additional observations from a re-analysis of the deposited data

How the results depend on the processing

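With 2 libraries per group, small changes can be missed, at a rate that the simulation above does not give for the real fit. Genes such as SLC16A1, PDK3 and PDK4 rested on 66 to 128 counts per library. Of 384 values (32 genes under 12 alternatives), 329 kept direction and side of the threshold. With the direction kept, 23 lost the threshold and 17 gained it. The remaining 15 changed sign, ALDOA being the 1 called gene that changed sign. Among these sign changes, with the correction, ALDOA also lost its call and PFKFB2 also gained one. SLC2A1, ALDOC and SLC16A3 kept their calls under all 12. The causes of the changes below were not tested.

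Of the 32 genes, 7 rose and 1 fell. With upper-quartile factors 11 rose and 0 fell, with limma-voom 0 fell, with DESeq2 2 fell and with the correction 4 fell; leaving out a library gave 3 to 4 rises and 0 to 1 falls. Over all genes, 2650 rose and 2960 fell; leaving out a library gave 1001 to 2215 and 1467 to 2382. Upper-quartile factors gave 3329 rises and 2532 falls over all genes, limma-voom 2611 and 2933, DESeq2 2869 and 3105, and the correction 2302 and 2687. The replicate block gave 6 rises and 1 fall among the 32 genes (ALDOA lost its call, edgeR adjusted p = 0.0655). Over all genes the block gave 2677 and 2917, 5219 of the 5610 calls being shared. Deviations of same-numbered libraries had a correlation of -0.05 over genes, which cannot settle whether the numbers pair the libraries.

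With the correction PFKL was at -0.022, PFKFB2 at 0.52, ALDOA at -0.13, GAPDH at -0.36, PGAM1 at -0.050, ENO1 at -0.32, SLC16A1 at 0.29, PDK1 at 0.55 and PDK4 at 0.34. PDHB was at 0.013 with library totals, and PGM1 at 0.090 with these and 0.040 with upper-quartile factors. With a library left out PDK2 ranged from -0.69 to 0.0046, PDK3 from -0.56 to 0.018 and PDK4 from -0.51 to 0.26. Of the pair ratios, the correction turned HK2 to HK1 to 0.27, SLC2A3 to SLC2A1 to 0.047, PFKFB4 to PFKFB2 to -0.28, PDK1 to PDK3 to 0.75, PDK2 to PDK1 to -1.28, PDK4 to PDK1 to -0.21 and PDHB to PDHA1 to -0.12. With a library left out HK2 to HK1 ranged from -0.15 to 0.0025, PFKFB3 to PFKFB2 from -0.25 to 0.10, LDHB to LDHA from -0.41 to 1.16, PDK2 to PDK1 from -0.083 to 0.40, PDK2 to PDK3 from -0.49 to 0.33 and PDK4 to PDK1 from -0.16 to 0.89.

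Of the lists, the correction gave 3 rises among other isozymes (from 6), 0 falls in the pyruvate dehydrogenase system (from 2), 1 fall in gluconeogenesis (from 0), 2 rises and 2 falls in the pentose phosphate pathway (from 4 and 0), and 6 rises and 1 fall among regulators (from 3 and 2). Library totals gave 0 falls in the pyruvate dehydrogenase system, 2 rises in gluconeogenesis (from 1), 3 falls in the citric acid cycle (from 5) and 1 fall among regulators.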
